A study of Arabidopsis thaliana with 11 samples.

Results

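The touch-inducible calmodulin-like genes described here are 8 Arabidopsis thaliana genes, chosen by name and taken by gene identifier from a table of 33602 genes: TCH2 (also CML24), TCH3 (also CML12), CAM2, CML23, CML37, CML38, CML39 and CML40. All 8 were found. The list was drawn up with earlier results of these data known. Expression was measured by RNA sequencing in whole 11-day-old seedlings of the Columbia ecotype, all raised in unbroken light on sucrose medium, in a study of the polypyrimidine tract-binding (PTB) proteins, which bind pyrimidine-rich RNA and regulate splicing. The 6 genotypes are a line with PTB1 (AT3G01150) and PTB2 (AT5G53180) lowered together by a miRNA (MI12), a line with PTB3 (AT1G43190) lowered by a miRNA (MI3), overexpressors of PTB1 (OE1), of PTB2 (OE2) and of PTB3 (OE3), and wild type (WT). The labels used here list 11 libraries, 1 for MI3 and 2 for each other genotype, but the table holds 1 RPKM value (reads per kilobase and per mega-read) for each gene and genotype. No spread between libraries could therefore be computed, and no difference below has a test or a p-value. The labels give each transgenic genotype a single line number, so a difference of a genotype cannot be told apart from a difference of that line, and the sources used here do not give the promoters that drive the constructs.

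Calmodulin is a small protein that takes up calcium ions through helix-loop-helix units called EF hands and then binds target proteins. Plants have, beside calmodulin itself, a large family of calmodulin-like (CML) proteins with the same units. Touch, wind, wounding or a calcium pulse in the cytosol quickly raises the transcripts of several of them, and the TCH genes are named for their response to touch.

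Read totals recovered from the spacing of low values were about 94.7 mega-reads in MI12 and 46.5 in MI3, with 95.9 in OE1, 79.6 in OE2 and 89.7 in OE3, against 93.4 in WT, so MI3 is the shallowest. The targeted PTB genes lay on the labelled side of WT: PTB3 was at 18.2% of WT in MI3 and 335% in OE3, PTB1 and PTB2 at 26.9% and 44.4% of WT in MI12, PTB1 at 63.8 times WT in OE1 and PTB2 at 38.0 times WT in OE2. Neither OE1 nor OE2 raised both PTB1 and PTB2. PTB2 had 5.74 RPKM in OE1, against 9.025 in WT, and PTB1 had 6.49 in OE2, against 9.46 in WT. Root and leaf transcripts were present in every column, with none of 6 root and none of 6 leaf marker genes at 0. In whole seedlings, fewer cells of a type and less RNA per cell cannot be told apart.

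In the line with lowered PTB3, TCH3 stood far below WT while CML23, CML38 and CML39 stood above it. TCH3 was at 12.8% of WT in MI3, and CML38 was at 3.06 times WT, CML23 at 1.996 times WT and CML39 at 4.37 times WT. TCH3 was also low where PTB3 was overexpressed, at 45.2% of WT in OE3. MI3 was the lowest of the 6 columns for 24.1% of all compared genes and the highest for 35.6%. A summed level of 6 root marker genes, most of it from the beta-glucosidase PYK10, was also highest in MI3, at 276% of WT. Of the 8 members, 6 reached 1 RPKM in at least 2 columns and were compared as a difference of log2(RPKM + 1), where a size of at least 1 was counted as 2-fold. CML39 and CML40 did not reach that level. In MI3, 1 of the 6 compared members was at least 2-fold higher (CML38), where 2.58% of all 19669 compared genes were, and 1 was at least 2-fold lower (TCH3), where 2.07% were. In OE3, 1 of the 6 was at least 2-fold lower (TCH3), where 0.529% of all compared genes were. None of the 6 was 2-fold higher in OE3, where 0.503% were. None was 2-fold higher or lower in MI12, where 0.234% of compared genes were higher and 0.269% lower. The same held in OE1, where 0.31% were higher and 0.6% lower, and in OE2, where 0.259% were higher and 0.183% lower. With so few members, a single call says little about them as a group.

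**Figure D1:**
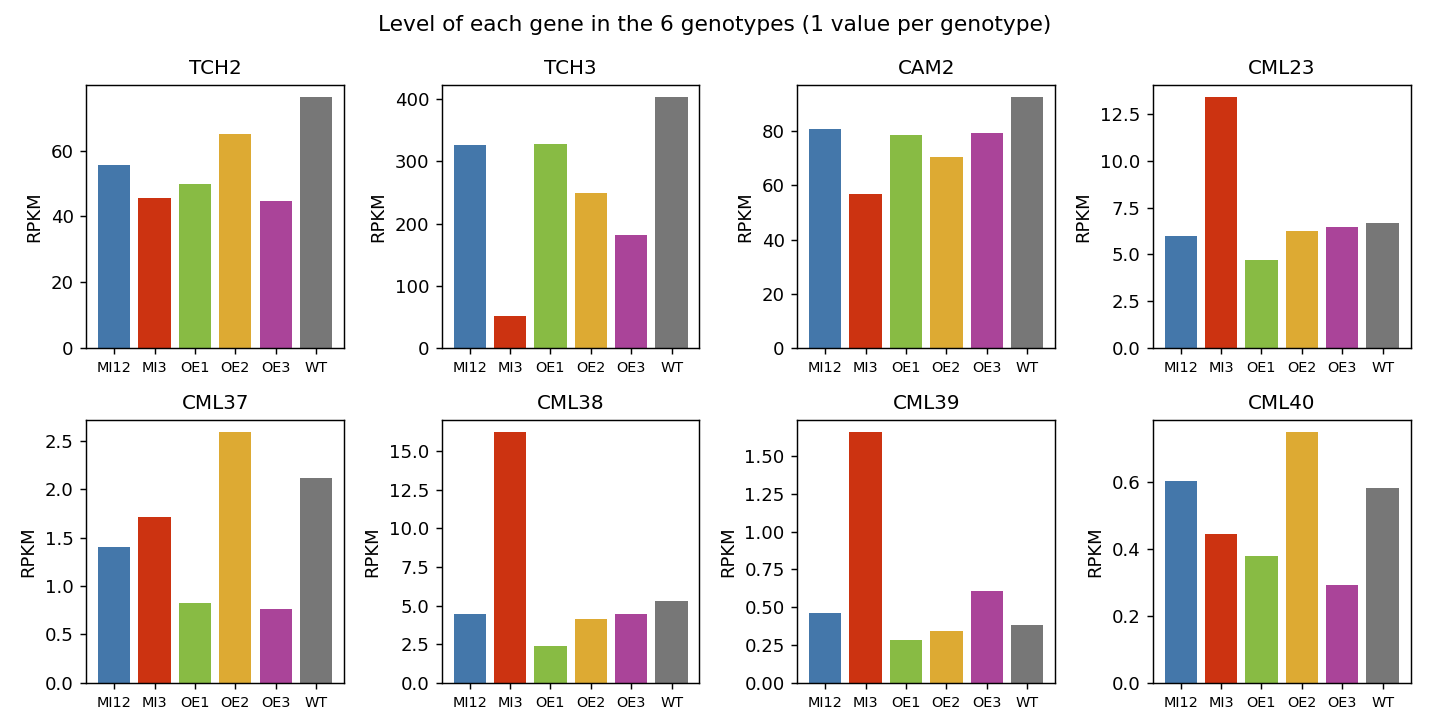
RPKM (vertical axis, from 0, a separate scale for each gene) of the 8 genes in MI12, MI3, OE1, OE2, OE3 and WT. Each bar is the authors' single value for a genotype, so there are no error bars. TCH3 is lowest in MI3 at 51.5 RPKM, and CML23, CML38 and CML39 are highest there.

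The stretches before TCH2, CML23, CAM2 and CML38 are shown because the first pair are close paralogs on opposite sides of WT in MI3, because the first 3 of these genes hold a repeated CGCG, and because CML38, the compared member furthest above WT in MI3, holds none. CGCG is the core of the site bound by CAMTA proteins, calmodulin-binding transcription activators that act in rapid responses to cold and wounding. Each window is the 250 bases before the annotated start of the gene, read from the RefSeq genome TAIR10.1, 5′ to 3′ on the strand of the gene, with every CGCG in capitals. The windows are chr5:14999620-14999869 (minus strand) for TCH2, chr1:24771394-24771643 (minus strand) for CML23, chr2:17139933-17140182 (plus strand) for CAM2 and chr1:28768139-28768388 (minus strand) for CML38.
TCH2: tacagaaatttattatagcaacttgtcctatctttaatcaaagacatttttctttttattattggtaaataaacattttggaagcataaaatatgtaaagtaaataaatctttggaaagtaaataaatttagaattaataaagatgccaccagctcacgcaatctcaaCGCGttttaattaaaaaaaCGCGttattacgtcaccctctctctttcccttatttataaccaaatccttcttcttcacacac
CML23: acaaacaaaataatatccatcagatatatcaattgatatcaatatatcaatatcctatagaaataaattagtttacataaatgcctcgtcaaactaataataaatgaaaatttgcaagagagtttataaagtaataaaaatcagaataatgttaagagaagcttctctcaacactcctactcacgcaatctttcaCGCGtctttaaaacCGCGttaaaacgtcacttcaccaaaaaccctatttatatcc
CAM2: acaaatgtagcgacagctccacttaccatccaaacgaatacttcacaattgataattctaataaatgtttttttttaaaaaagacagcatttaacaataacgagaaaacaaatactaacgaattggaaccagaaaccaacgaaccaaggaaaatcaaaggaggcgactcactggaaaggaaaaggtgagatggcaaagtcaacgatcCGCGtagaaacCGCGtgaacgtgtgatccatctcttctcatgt
CML38: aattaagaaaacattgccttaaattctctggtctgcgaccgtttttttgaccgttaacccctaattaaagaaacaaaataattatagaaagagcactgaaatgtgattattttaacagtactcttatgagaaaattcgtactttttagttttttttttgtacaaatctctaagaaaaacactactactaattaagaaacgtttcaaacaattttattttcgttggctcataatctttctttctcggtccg
In TCH2 the CGCG copies ended 79 and 60 bases before the start, with 15 bases between them. The pair in CML23 ended 52 and 38 bases before the start, with 10 bases between, and that in CAM2 ended 40 and 29 bases before it, with 7 bases between. CML40 held 1 copy, and the windows of TCH3, CML37, CML38 and CML39 held none. CGCG reads the same on both strands. It was in 10.4% of the 32826 windows of this length before nuclear genes of the table, and at least 2 copies were in 1.77% of them. Searched on both strands, ACGTG was in the windows of 3 of 8 members and in 21.6% of all windows, and TTGAC in 4 of 8 and in 44.5%. Neither shared a base with a CGCG match in these windows. The window of TCH3 lies wholly in exons of neighbouring annotated genes and is not printed. A match describes letters in the window and does not show binding.

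TCH2 and CML23 are paralogs known from work on nitric oxide and flowering time, and their aligned coding sequences were identical at 78.8% of positions. TCH2 (AT5G37770, chromosome 5, 14997514 to 14999619) had 55.6 RPKM in MI12 and 45.7 in MI3, with 49.8 in OE1, 65.0 in OE2 and 44.6 in OE3, against 76.1 RPKM in WT. WT was the highest column, and the lowest pair, MI3 and OE3, did not differ by more than counting error. The ratio to WT was 0.600 in MI3, with a 95% counting interval of 0.570 to 0.632, and 0.586 in OE3, with an interval of 0.562 to 0.610. These intervals cover counting error in the reads behind a value and no difference between plants or libraries. On the log2(RPKM + 1) scale the largest difference of TCH2 was -0.76, in OE3, so TCH2 was 2-fold from WT in no line.

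CML23 (AT1G66400, chromosome 1, 24770419 to 24771393) had 5.97 RPKM in MI12 and 13.4 in MI3, with 4.69 in OE1, 6.26 in OE2 and 6.47 in OE3, against 6.705 RPKM in WT. MI3 stood above the other 5 columns, OE1 was the lowest, and MI12, OE2 and OE3 did not differ from WT by more than counting error. The ratio to WT was 1.996 in MI3 (counting interval 1.78 to 2.24), a log2(RPKM + 1) difference of 0.90, just under the value counted as 2-fold. In OE1 the ratio was 0.699 (interval 0.617 to 0.792). The paralogs thus lay on opposite sides of WT in MI3. TCH2 had 3.41 times the RPKM of CML23 in MI3, between 6.89 times (OE3) and 10.6 times (OE1) in the other 4 lines, and 11.4 times in WT.

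TCH3 encodes a calmodulin-like protein with more EF hands than calmodulin and is induced by touch. It (AT2G41100, chromosome 2, 17137037 to 17139700) was the most abundant of the 8 genes in 5 of the 6 columns, with 326 RPKM in MI12 and 51.5 in MI3, and 328 in OE1, 249.7 in OE2 and 182 in OE3, against 402 RPKM in WT. The columns ran from WT at the top through OE1 and MI12, which did not differ by more than counting error, to OE2, OE3 and MI3. The ratio to WT was 0.128 in MI3 (interval 0.123 to 0.133) and 0.452 in OE3 (interval 0.444 to 0.459), with log2(RPKM + 1) differences of -2.94 and -1.14. Both lines in which PTB3 was altered were thus below the other 3 lines and WT. Set against OE3 directly, MI3 had 28.4% of its TCH3 level, a log2 difference of -1.80. Taken against the median of its 4 fellow lines, the OE3 difference was -0.66, no longer 2-fold, and the MI3 difference was -2.46.

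CAM2, which encodes calmodulin itself, is the next gene downstream of TCH3 on the same strand, 482 bases away. CAM2 (AT2G41110, chromosome 2, 17140183 to 17141431) had 80.9 RPKM in MI12 and 56.9 in MI3, with 78.4 in OE1, 70.5 in OE2 and 79.3 in OE3, against 92.4 RPKM in WT. It too was lowest in MI3 and highest in WT, with a ratio of 0.615 in MI3 (interval 0.586 to 0.645), and MI12, OE3 and OE1 formed a middle group whose neighbours did not differ by more than counting error. TCH3 had 0.906 times the RPKM of CAM2 in MI3, between 2.29 times (OE3) and 4.18 times (OE1) in the other lines, and 4.36 times in WT. MI3 was therefore the column in which CAM2 exceeded TCH3. The other calmodulin genes are not part of this ratio. CAM2 shares long identical stretches with other calmodulin genes, up to 35 bases with CAM3, so a part of its reads may have been shared among copies.

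**Figure D2:**
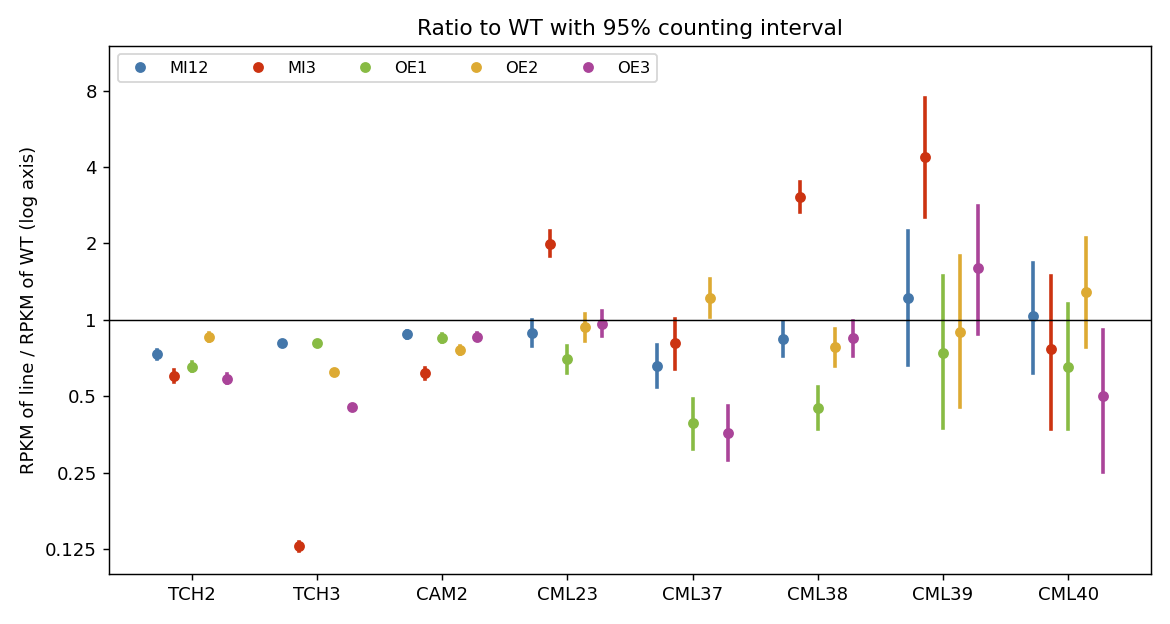
Ratio of each line to WT in RPKM (vertical axis, log scale) for the 8 genes (horizontal axis). Points are the ratio and bars its 95% counting interval, which holds no spread between libraries. The MI3 points lie at 0.128 for TCH3 and between 1.996 and 4.37 for CML23, CML38 and CML39, and the intervals are widest for CML39 and CML40.

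CML37, CML38 and CML39 were identical at 57.0% to 72.4% of aligned coding positions. CML40 was at 49.6% to 55.3% against them and at 54.3% against TCH2. CML37 is known from defence against insect feeding and CML38 from low oxygen. CML37 (AT5G42380, chromosome 5, 16942447 to 16943820) had 1.40 RPKM in MI12 and 1.71 in MI3, with 0.83 in OE1, 2.59 in OE2 and 0.761 in OE3, against 2.12 RPKM in WT. OE2 was above WT, MI3 did not differ from WT by more than counting error, and OE1 and OE3 were the lowest and did not differ by more than counting error. The ratio to WT was 0.392 in OE1 (interval 0.310 to 0.489), 0.359 in OE3 (interval 0.281 to 0.456) and 1.22 in OE2 (interval 1.03 to 1.45). At these levels the added 1 RPKM shrinks differences: the log2(RPKM + 1) difference was -0.77 in OE1 and -0.82 in OE3, but -1.25 and -1.36 with 0.1 RPKM added. For CML37, OE1 and OE3 thus stood further from WT than MI3 did.

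CML38 (AT1G76650, chromosome 1, 28766750 to 28768138) had 4.46 RPKM in MI12 and 16.2 in MI3, with 2.38 in OE1, 4.13 in OE2 and 4.49 in OE3, against 5.30 RPKM in WT. MI3 was the highest column and OE1 the lowest. OE3, MI12 and OE2 lay below WT, and their neighbours in the order did not differ from each other by more than counting error. The ratio to WT was 3.06 in MI3 (interval 2.67 to 3.51) and 0.448 in OE1 (interval 0.371 to 0.543), with log2(RPKM + 1) differences of 1.45 and -0.90. Against OE3, the MI3 ratio was 3.61 (interval 3.13 to 4.19). CML39 (AT1G76640, chromosome 1, 28765254 to 28765866), its neighbour on the same strand with 883 bases between them and 72.4% identity over the aligned coding sequences, had 0.46 RPKM in MI12 and 1.66 in MI3, with 0.281 in OE1, 0.34 in OE2 and 0.604 in OE3, against 0.379 RPKM in WT. MI3 again stood above the other columns and OE1 was again the lowest, but the other 5 columns rested on about 17 to 33 reads each and no neighbours among them were apart. The MI3 ratio of CML39 to WT was 4.37, with an interval of 2.53 to 7.47.

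CML40 (AT3G01830, chromosome 3, 296024 to 299263) was low in every column, with 0.602 RPKM in MI12 and 0.444 in MI3, and 0.38 in OE1, 0.749 in OE2 and 0.292 in OE3, against 0.581 RPKM in WT. Only OE3, at 0.503 times WT (interval 0.252 to 0.912), differed from WT by more than counting error, and no neighbours in the order of levels were apart. The gene overlaps AT3G01840 on the other strand, which was at 0.359 to 0.579 RPKM over the 6 columns, and 62.9% of the 36-base windows of its longest transcript lie in transcripts of other annotated genes. Whether counting used strand is not stated in the sources used here, and reads of CML40 and of that gene may not have been told apart. TCH2 and CAM2 also overlap a gene on the other strand at 1 end, AT5G37760 at 0.157 to 0.37 RPKM and AT2G41120 at 6.21 to 11.2 RPKM. The share of 36-base windows found in transcripts of other genes was 20.7% for TCH2, 36% for CAM2 and 17.8% for TCH3. For TCH3 those genes were AT2G41105, AT2G09220 and its upstream neighbour AT2G41090, so a part of its reads may have been shared with them. CML23, CML37, CML38 and CML39 had no shared window.

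Root transcripts differed between columns alongside several of these genes. The 6 root markers, among them the endodermal CASP1, the root hair expansin EXPA7 and the beta-glucosidase PYK10, summed to 113% of WT in MI12 and 276% in MI3, with 64.2% in OE1, 89.8% in OE2 and 124% in OE3. PYK10 made up most of the sum, with 1583 of 2119 RPKM in MI3 and 626 of 769 in WT. In MI3, 5 of the 6 were at least 2-fold above WT, where 2.58% of all compared genes were. CASP1 was the exception, at 10.9 RPKM in MI3 against 9.99 in WT, and was highest in OE3 at 12.6. In OE1 all 6 were below WT without any 2-fold difference. MI3 was thus the highest and OE1 the lowest column for the root sum as for CML23, CML38 and CML39, and the part of root RNA in those results was not tested. The 6 leaf markers summed to 113% of WT in MI12 and 70.1% in MI3, with 91.2% in OE1, 112% in OE2 and 93.0% in OE3, with the Rubisco activase gene RCA 2-fold below WT in MI3. In MI3, 5 of the 6 leaf markers were below WT, and LHCB3, an antenna protein gene, was above it, at 1151 RPKM in MI3, against 949 in WT. The median difference of the 6 in MI3 was -0.39, and -0.095 with quantile normalization. The summed leaf level was thus lowest in MI3, as TCH3 was, at 12.8% of WT for the gene against 70.1% for the leaf sum, and the part of leaf RNA in the TCH3 result was not tested. In OE3 the leaf sum was at 93.0% of WT and TCH3 at 45.2%. MI3 also has the lowest depth and a single library in the labels, which cannot be told apart from its genotype.

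**Figure D3:**
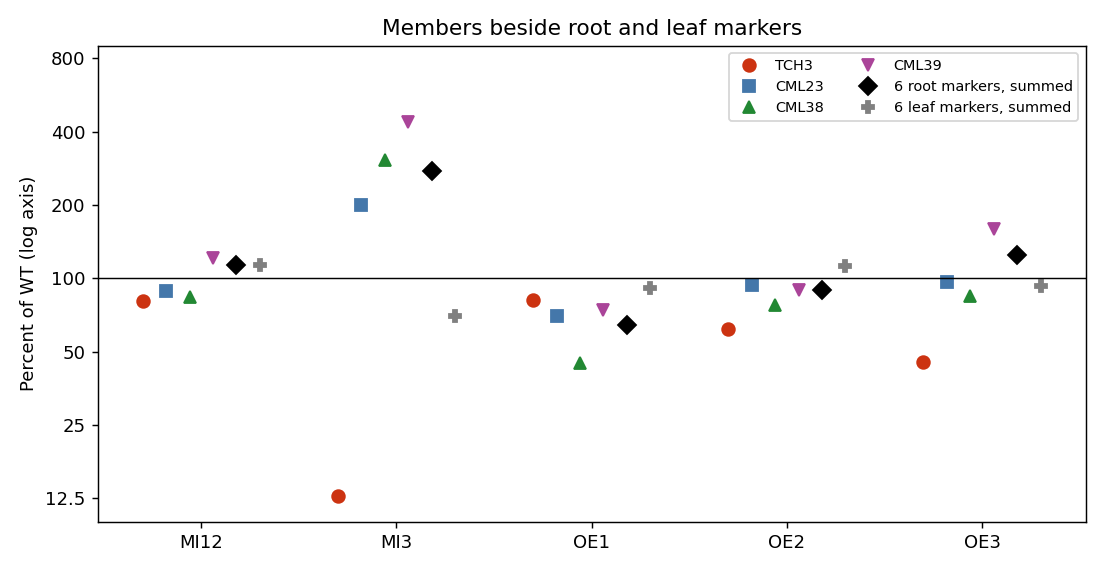
Level as a percentage of WT (vertical axis, log scale) of TCH3, CML23, CML38, CML39 and the summed RPKM of 6 root and 6 leaf markers in the 5 lines. Each point is 1 value for a genotype without replicate error. In MI3 the root sum, at 276%, lies among CML23, CML38 and CML39, and TCH3, at 12.8%, lies below the leaf sum at 70.1%.

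The 5 lines share the WT column, so the side of WT on which they fall is not independent between lines. The members were also chosen with earlier results of these data known, so setting them against all genes is a description only. All 6 compared members were below WT in MI12, where 51.5% of compared genes were, 4 of 6 in MI3 (43.2%), all 6 in OE1 (51.1%), 5 of 6 in OE2 (63.1%) and all 6 in OE3 (41.2%). WT was the highest of the 6 columns for TCH2, TCH3 and CAM2, a pattern of 10.6% of compared genes. When each line was set against the median of its 4 fellow lines, 13 of the members' differences took the opposite sign. Then TCH2, TCH3, CAM2, CML37 and CML38 lay above that median in MI12, CML37 in MI3, TCH3 and CAM2 in OE1, TCH2 and CML23 in OE2, and CAM2, CML23 and CML38 in OE3, although each of these was below WT in that line. The median log2 difference of the 6 members was -0.26 in MI12 and -0.45 in MI3, with -0.52 in OE1, -0.26 in OE2 and -0.49 in OE3, where that of all compared genes lay between -0.053 and 0.051. MI12 was also set against the overexpressors of PTB1 and PTB2, as MI12 minus the mean of OE1 and OE2. It does not set both genes low against both high, since PTB2 was below WT in OE1 and PTB1 in OE2. None of the 6 was 2-fold higher (0.325% of compared genes were) or lower (0.447% were), and the largest difference was 0.39, at CML38. In MI3 minus OE3, CML38 was 2-fold higher at 1.65 (1.15% of all genes) and TCH3 2-fold lower at -1.80 (0.763% of all genes), while TCH2 differed by 0.034.

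TCH2 and CML23 each lie beside a calmodulin gene. CAM1 is the next gene beyond TCH2, 4846 bases away, and CAM4 the next beyond CML23, 2719 bases away. CAM1 had 89.5 RPKM in MI3 and 76.6 in OE3, against 72.5 in WT, and CAM4 had 101 RPKM in MI3 and 86.1 in OE3, against 82.6 in WT. CAM1, at 1.23 times WT in MI3 (interval 1.18 to 1.29), therefore stood on the other side of WT from its neighbour TCH2, and CAM4, at 1.22 times WT (interval 1.18 to 1.27), on the same side as CML23. Upstream of TCH3, with 37 bases between the annotated ends, lies AT2G41090, annotated as an EF-hand calcium-binding protein, with 59.4 RPKM in MI3 and 87.9 in OE3, against 113.7 in WT. All 3 adjacent genes, AT2G41090, TCH3 and CAM2, were thus below WT in both PTB3 lines, TCH3 the furthest. They were also all below WT in MI12, at 74.3%, 80.9% and 87.6% of WT in that order, and in OE2, at 77.7%, 62.0% and 76.3%. In OE1, AT2G41090 was above WT, at 129 RPKM, while TCH3 and CAM2 were below.

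**Figure D4:**
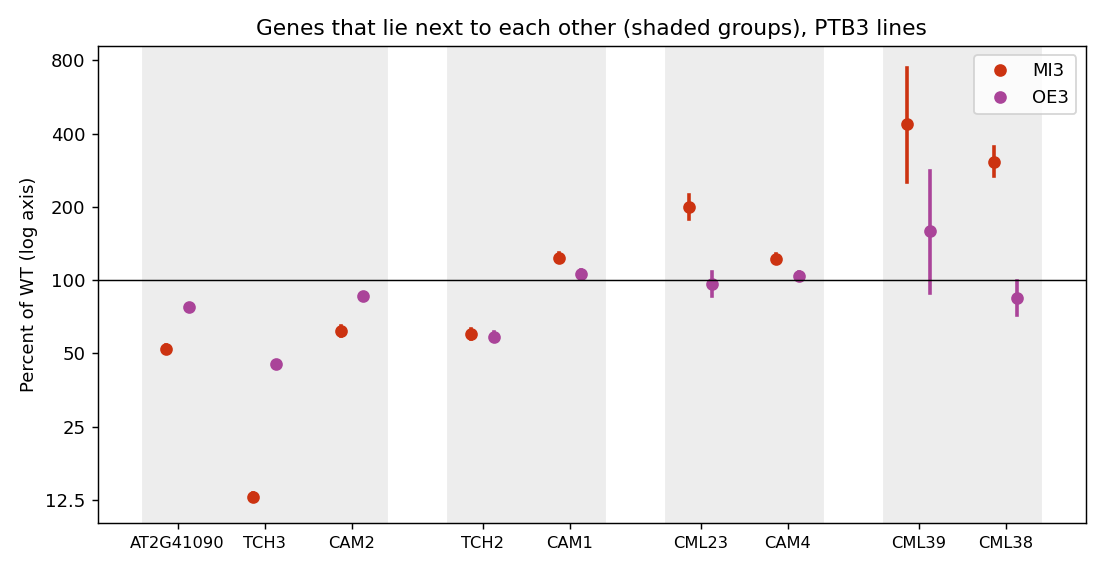
Level in MI3 and OE3 as a percentage of WT (vertical axis, log scale) for members and the genes beside them on the chromosome, with adjacent genes shaded together. Points are ratios and bars 95% counting intervals. In MI3 the group around TCH3 lies below 100%, CAM1 lies above 100% beside TCH2 below it, and CML38 and CML39 lie furthest above it.

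Of the other 6 calmodulin genes, none was 2-fold from WT in any line, with list medians between -0.11 (OE2) and 0.066 (OE3). The 6 CAMTA genes, whose products bind calmodulin and CGCG sites, also had no member past 2-fold in any line. The same held for a mixed list of 10 genes for channels and signalling partners. It holds MSL10 and MCA1 but also GLR3.3, GLR3.6 and SGS3, so not all are mechanosensitive channels. Of all compared genes, between 0.183% (lower in OE2) and 2.58% (higher in MI3) were past 2-fold in a given line and direction. Lists of 6 or 10 genes could therefore hold none by their size alone, and these counts set no contrast with the members. The MI3 medians of the CAMTA list and the mixed list were 0.19 and 0.19. Of 43 further genes listed as calmodulin-like, 29 were compared. In MI3, 1 was 2-fold higher and 1 lower (2.58% and 2.07% of all compared genes). In OE1 none was higher and 2 were lower (0.31% and 0.6%), and in OE3 1 was higher and 3 were lower (0.503% and 0.529%). In MI12 (0.234% and 0.269%) and OE2 (0.259% and 0.183%) none was past 2-fold. The median was 0.038 in MI3, -0.28 in OE1 and -0.15 in OE3. These medians moved with the genes kept and the scaling: in MI3 the median was -0.37 with the filter of 5 RPKM, -0.013 with median-of-ratios scaling, -0.035 with quantile normalization and 0.23 against the fellow lines. With no filter it was -0.11 in OE1 and 0 in OE3, where it was -0.28 with the filter of 5 RPKM and 0.025 against the fellow lines. Those named are annotated as EF-hand calcium-binding proteins. AT3G10300 had 9.28 RPKM in MI3 and 14.2 in OE3, against 30.9 in WT, and was low in the same lines as TCH3. AT5G39670 had 6.18 RPKM in OE1 and 8.38 in OE3, against 20.8 in WT, and AT3G47480 had 9.005 in OE1 and 8.38 in OE3, against 18.3 in WT. These were lowest in OE1 and OE3, as CML37 was. AT3G29000 had 6.69 RPKM in MI3 and 1.54 in OE1, against 4.13 in WT, the highest and lowest columns of CML38.

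Of 22 genes known to respond rapidly to touch or wounding, 19 were compared. CBF1, CBF2 and CBF3 reached 1 RPKM in MI3 alone and were left out. They had 1.68, 4.51 and 1.54 RPKM in MI3, against 0.034, 0.898 and 0.213 in WT. Their log2(RPKM + 1) differences in MI3 were 1.38, 1.54 and 1.07, all past 2-fold higher, and the counts here omit them. In MI3, 1 of the 19 was 2-fold higher and 2 were lower (2.58% and 2.07% of all compared genes). In OE1 none was higher and 2 were lower (0.31% and 0.6%), and in OE3 none was higher and 1 was lower (0.503% and 0.529%). In MI12 none was higher and 1 was lower (0.234% and 0.269%), and in OE2 none was past 2-fold (0.259% and 0.183%). The median was -0.22 in MI3, -0.37 in OE1 and -0.53 in OE3. The MI3 median had no stable sign: it was 0.12 with no filter, 0.092 with the filter of 5 RPKM and 0.28 against the fellow lines. The OE1 median was -0.17 against the fellow lines, and that of OE3 was -0.17 against them and -0.32 with no filter. TCH4, a xyloglucan endotransglucosylase of the cell wall, had 57.7 RPKM in MI3 and 190 in OE3, against 342 in WT, and 440 in OE2. PHI-1, of the phosphate-induced EXORDIUM family, had 4.94 RPKM in MI3 and 19.2 in OE3, against 84.3 in WT, and 101 in OE2. Both were low in MI3 and OE3 as TCH3 was, but above WT in OE2, where TCH3 was at 62.0% of WT. The ethylene response factor gene ERF5, at 10.2 RPKM in MI3, against 4.58 in WT, lay on the side of CML38.

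The genes whose line minus WT values were nearest to those of a member, by the root mean square difference over the 5 lines, were sought among 14502 compared genes of at least 5 RPKM in their highest column, for the 5 members whose log2(RPKM + 1) range was at least 1. TCH3 was nearest to AT3G59350, annotated as a protein kinase, with a difference of 0.21 on the log2 scale, to the abscisic acid receptor gene PYL5 (0.22) and to the thionin gene THI2.2 (0.24). AT3G59350 had 18.4 RPKM in MI3 and 52.7 in OE3, against 111 in WT. CML23 was nearest to AT5G03230 (0.061), to the subtilase gene AT3G14067 (0.062) and to RD26 (0.082), a NAC transcription factor induced by drying, which had 15.2 RPKM in MI3, against 7.54 in WT. CML38 was nearest to AT4G24110 (0.12), with 31.3 RPKM in MI3 and 5.78 in OE1, against 11.9 in WT, to the F-box gene AUF2 (0.17) and to the cold-regulated membrane protein gene COR413-PM1 (0.20). CML37 was nearest to the defence regulator PAD4 (0.13), to AT1G07135 (0.15) and to NHL3 (0.15), and CML39, whose low level flattens its pattern, to the calcium-sensor-interacting kinase gene CIPK5 (0.031). These points share the WT column and have n = 5 differences, and the likeness is a description. CML37, CML39 and CML40 were under 5 RPKM in every column and could not be returned by this search.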

How the data were processed

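The values are RPKM as deposited, the authors' reads per kilobase and per mega-read in 1 column for each genotype. TAIR10 is the build named, per the submitters' processing notes. The sources used here do not give the aligner, the counting tool, the strand setting, the handling of multi-mapped reads or how libraries were combined. Of 33602 gene identifiers, 32827 matched RefSeq TAIR10.1, which gave names, coordinates and upstream sequences, and 1 WT cell without a number was set to 0.

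Differences were taken on the log2(RPKM + 1) scale, which understates changes of low genes, over the 19669 genes that reached 1 RPKM in 2 or more columns. The planned tests per library could not be run on 1 value per genotype. Total reads per column were found as the number that makes low values whole reads (within 0.1 of a whole read for 93.2% to 100% of low values of genes whose length held in the other columns, where 20% would by chance). Counting intervals are 95% exact binomial intervals on reads for the shortest annotated transcript, so on transcript length they err on the wide side. Intervals cover counting error only, since the table holds 1 value per genotype. No molecular identifiers separate PCR copies, and copies counted as reads would make the intervals too narrow.

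The members and lists were chosen with earlier results of these data known. Named beside the members were the PTB genes, neighbours, up to 4 genes of each list past 2-fold with at least 5 RPKM, and the 3 genes nearest in pattern to each variable member. CBF1, CBF2 and CBF3 were also named, as the touch or wounding genes left out by the filter. The motifs and the printed sequences were chosen after values were seen. Alternatives were pseudocounts of 0.1 and 0.5, no filter or a filter of 5 RPKM, median-of-ratios scaling, quantile normalization and the median of each line's 4 fellow lines in place of WT. Tools were matplotlib 3.10.9, scipy 1.17.1, pandas 2.3.3, numpy 2.4.6 and Python 3.11.15.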

Additional observations from a re-analysis of the deposited data

How the results depend on the processing

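With 0.1 RPKM added in place of 1, the members at least 2-fold lower numbered 2 in OE1 and 2 in OE3, in place of none and 1, and those 2-fold higher in MI3 minus OE3 numbered 3 in place of 1. With 0.5 RPKM added, the lower members numbered 1 in OE1 and 2 in OE3. These are low genes, whose differences a larger added value shrinks by construction. Against the median of its 4 fellow lines in place of WT, MI3 had 2 members 2-fold higher, where CML23 joined at 1.02, and OE3 had 0 members 2-fold lower. The share of all compared genes past 2-fold was computed only for the reported setting. None therefore stands beside these counts, and they describe the members' values only. Every count of 2-fold members stayed as reported under median-of-ratios scaling, quantile normalization, no filter and the filter of 5 RPKM, and no member's 2-fold difference changed sign under the alternatives run. The fellow-line reference was run only for the 5 lines against WT. Members' differences that were not 2-fold changed sign only against that median, in 13 cases. Medians of the other gene lists also changed sign with the filter or scaling, as given beside them. No paired analysis was possible because the table holds 1 value per genotype and no column carries a replicate number; for the same reason no library could be left out. Depth limits CML39 and CML40, which rest on about 13 to 47 reads a column.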
